A study of Mus musculus with 36 samples.

Results

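The genes examined were 10 regulators of the Ras-ERK cascade, taken by name from the 55470 gene rows counted in each of 36 RiboTag libraries of mouse cortex. They were the Ras exchange factors Rasgrp1 and Rasgrf1, the ERK feedback inhibitors Spred1, Spred2, Spry2, Spry4, Dusp1, Dusp4 and Dusp6, and the ETS transcription factor Etv5. Ras is a small GTPase that exchange factors load with GTP in response to calcium, diacylglycerol or receptor signals. Loaded Ras starts the phosphorylation relay of Raf, MEK and ERK, and in cortical neurons active ERK carries synaptic activity to the nucleus. Genes that ERK switches on include its own brakes: Spred and Sprouty proteins act on Ras and Raf, and dual-specificity phosphatases take phosphate off ERK itself.

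The RiboTag method pulls down ribosomes that carry an HA-tagged Rpl22 protein, here in cells in which Camk2a-Cre, a driver of forebrain excitatory neurons, released the tag. Shank3(ΔC/+);HA-Rpl22(f/+);Camk2a-Cre(+/-) mice carried 1 mutated allele of Shank3, a scaffold protein of excitatory synapses, and are called Shank3 below. Their Shank3(+/+);HA-Rpl22(f/+);Camk2a-Cre(+/-) littermates are called WT, so both genotypes shared the tag and the Cre on the C57BL6JL background. One protocol field gives the tag allele as f/f and not f/+. Swim mice spent 5 min by one label and 6 min by another in water at 25 °C and were killed 1 h or 4 h later, while naive mice stayed in the home cage. Cohort 1 held 5 Shank3 and 6 WT libraries at 1 h with 3 naive Shank3 and 3 naive WT libraries. Cohort 2 held 6 Shank3 and 5 WT libraries at 4 h with 4 naive Shank3 and 4 naive WT libraries. Each swim group was therefore compared with the naive mice of its own cohort. Time after swim cannot be told apart from cohort, whether levels or swim responses are compared. The sex and age of the mice were not given in the sources used here. The Shank3 row counts the whole gene, shares exon bases with a gene on the other strand, and so checks nothing about the mutated allele. It averaged 22.2 ± 9.29 CPM in Shank3 (SD, n = 6) and 12.2 ± 4.93 CPM in WT (n = 5) at 4 h, 11.0 ± 3.58 CPM in Shank3 (n = 5) and 9.15 ± 2.04 CPM in WT (n = 6) at 1 h, 12.3 ± 3.56 CPM in Shank3 and 9.28 ± 2.3 CPM in WT in the naive mice of cohort 1 (n = 3 each), and 15.1 ± 1.52 CPM in Shank3 and 6.27 ± 1.11 CPM in WT in those of cohort 2 (n = 4 each).

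Total counts per library ran from 883870 to 3520018. Pyramidal neuron markers were present in all groups, with 7 of 7 past the low-count filter, whereas 0 of 7 endothelial and mural markers passed and Cldn5 was at 0 in every library. The microglia list was not low: its summed level, with only Csf1r of 7 markers past the filter, was 394 to 657 CPM in Shank3 at 1 h against 858 to 968 CPM in naive Shank3, and 385 to 852 CPM in WT at 1 h against 999 to 1080 CPM in naive WT. At 4 h it was 163 to 357 CPM in Shank3 against 556 to 800 CPM in naive Shank3, and 167 to 384 CPM in WT against 575 to 871 CPM in naive WT. The Csf1r row shares exon bases with a gene on the other strand, and without the strand of counting the reads of the pair cannot be told apart. A property of the libraries moved with swim. Many rows share bases with a gene on the opposite strand, and 75.7% of all counts lay on rows whose exons do so. The pair share, the percent of the counts of antisense and protein-coding row pairs that lay on the protein-coding row, ran from 10.65% to 33.09% per library. Its mean was 14 ± 1.81% in Shank3 at 1 h (SD, n = 5) against 11.3 ± 0.565% in naive Shank3 (n = 3), and 14.4 ± 2.08% in WT at 1 h (n = 6) against 10.8 ± 0.185% in naive WT (n = 3). At 4 h it was 25.5 ± 7.23% in Shank3 (n = 6) against 13.1 ± 1.48% in naive Shank3 (n = 4), and 23.2 ± 5.32% in WT (n = 5) against 13.2 ± 1.4% in naive WT (n = 4). By exact two-sided permutation tests, these swim differences had p of 0.0357, 0.0238, 0.00952 and 0.0159, with 0.0635 as the lowest value after adjustment over 8 comparisons. Each swim group lay wholly above its naive group, so each p was the lowest that groups of its size can give. Swim results are given first with TMM scaling over all genes. For the members, scaling on genes that have none annotated on the other strand and a fit with the pair share as a covariate follow.

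Positions are those of GENCODE vM21 on mm10, written as chromosome, start, end and strand. Rasgrp1 (ENSMUSG00000027347) lies at chr2:117279993-117343001 on the minus strand, and Spred1 (ENSMUSG00000027351) at chr2:117121374-117182279 on the plus strand, with 97713 bases between them. Rasgrf1 (ENSMUSG00000032356) lies at chr9:89909908-90026977 (plus), Spred2 (ENSMUSG00000045671) at chr11:19924375-20024026 (plus), Spry2 (ENSMUSG00000022114) at chr14:105891947-105896819 (minus) and Spry4 (ENSMUSG00000024427) at chr18:38586247-38601415 (minus). Dusp1 (ENSMUSG00000024190) lies at chr17:26505590-26562128 (minus), Dusp4 (ENSMUSG00000031530) at chr8:34807297-34819894 (plus), Dusp6 (ENSMUSG00000019960) at chr10:99263231-99267489 (plus) and Etv5 (ENSMUSG00000013089) at chr16:22381309-22439719 (minus). The annotation places no gene opposite 8 of the 10. Dusp1 shares 11 exon bases with Ergic1, which had 807 counts over the 36 libraries against 1273 for Dusp1, and the pseudogene Gm8225 in its body had 3 counts. Both rows opposite an intron of Spry4, Gm27369 and Gm27804, had 0 counts.

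On the scale of CPM per kb of exon, Rasgrp1 had the highest level of the 10, with a median of 21.2 over the 36 libraries and a range of 8.95 to 51.7. Spry2 (median 8.29), Dusp4 (7.71), Dusp6 (6.65), Dusp1 (6.0), Etv5 (5.32), Rasgrf1 (5.18), Spred1 (4.84) and Spred2 (2.71) followed. Neighbours in that order from Spry2 to Spred2 had ranges that overlapped. Spry4 was far below the rest, with a median of 0.151 CPM per kb and a highest value of 0.976. It had 101 counts in all, in 20 of 36 libraries, and was the only one of the 10 that failed the low-count filter, so the fits cover 9 genes.

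Promoter windows, from 250 bases before to 50 after the gene start, were taken from RefSeq (GRCm38.p6), which held 9 windows for 8 of the 10 genes and none for Spry4 or Dusp4. Spred1, Spred2 and Rasgrf1, which rose after swim, and Dusp1, which did not pass the threshold in the fits scaled over all genes, are shown because they differ in the element through which the activity-regulated factor CREB is known to bind. Capitals mark TGACG, the core of a cAMP response element, read on either strand (CGTCA on the other), and the whole element TGACGTCA, which holds the core on both strands and is therefore counted under both motifs.
Spred1, chr2:117120821-117121120, plus strand: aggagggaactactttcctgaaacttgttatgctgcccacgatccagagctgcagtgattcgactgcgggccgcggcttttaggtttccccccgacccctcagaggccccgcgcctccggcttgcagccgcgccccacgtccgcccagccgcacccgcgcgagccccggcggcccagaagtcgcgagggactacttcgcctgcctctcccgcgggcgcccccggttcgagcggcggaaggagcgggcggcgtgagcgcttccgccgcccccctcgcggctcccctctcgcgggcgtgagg
Spred2, chr11:19924192-19924491, plus strand: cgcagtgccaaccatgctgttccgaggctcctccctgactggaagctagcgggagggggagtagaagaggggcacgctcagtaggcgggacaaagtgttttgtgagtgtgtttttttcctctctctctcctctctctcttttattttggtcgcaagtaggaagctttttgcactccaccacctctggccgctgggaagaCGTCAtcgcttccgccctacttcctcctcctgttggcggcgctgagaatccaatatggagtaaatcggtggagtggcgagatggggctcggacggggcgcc
Rasgrf1, chr9:89909525-89909824, plus strand: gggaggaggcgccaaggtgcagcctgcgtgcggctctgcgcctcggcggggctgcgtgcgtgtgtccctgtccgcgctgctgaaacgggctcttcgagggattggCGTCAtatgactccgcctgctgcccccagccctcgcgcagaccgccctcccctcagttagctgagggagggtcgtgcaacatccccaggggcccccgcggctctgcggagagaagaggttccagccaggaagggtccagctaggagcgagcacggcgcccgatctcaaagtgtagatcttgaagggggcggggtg
Dusp1, chr17:26508423-26508722, minus strand: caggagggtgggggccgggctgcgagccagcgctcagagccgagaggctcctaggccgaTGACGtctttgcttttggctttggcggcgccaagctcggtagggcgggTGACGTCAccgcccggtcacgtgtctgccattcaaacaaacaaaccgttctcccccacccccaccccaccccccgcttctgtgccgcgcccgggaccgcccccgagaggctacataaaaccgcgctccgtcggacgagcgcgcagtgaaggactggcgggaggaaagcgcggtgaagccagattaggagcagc
The Dusp1 window held the whole element at -143 relative to the start and another core at -191, and lies inside the longer GENCODE gene body. Spred2 held 1 core at -51 and Rasgrf1 held 1 core at -145. The Spred1 window held none. Among 32851 promoter windows, 1.79% held the whole element and 20.8% held the core. None of the windows of the 8 genes held the ETS site CCGGAAG (in 8.86% of all windows) or an AP-1 site (TGANTCA, 7.81%). None held an EGR site (GCGNGGGCG, 5.55%) or a CArG box (1.63%). Each was read on both strands. Shorter ETS matches such as GGAA, which the windows shown do hold, were not counted. A match is a run of letters and not a tested binding site.

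**Figure D1:**
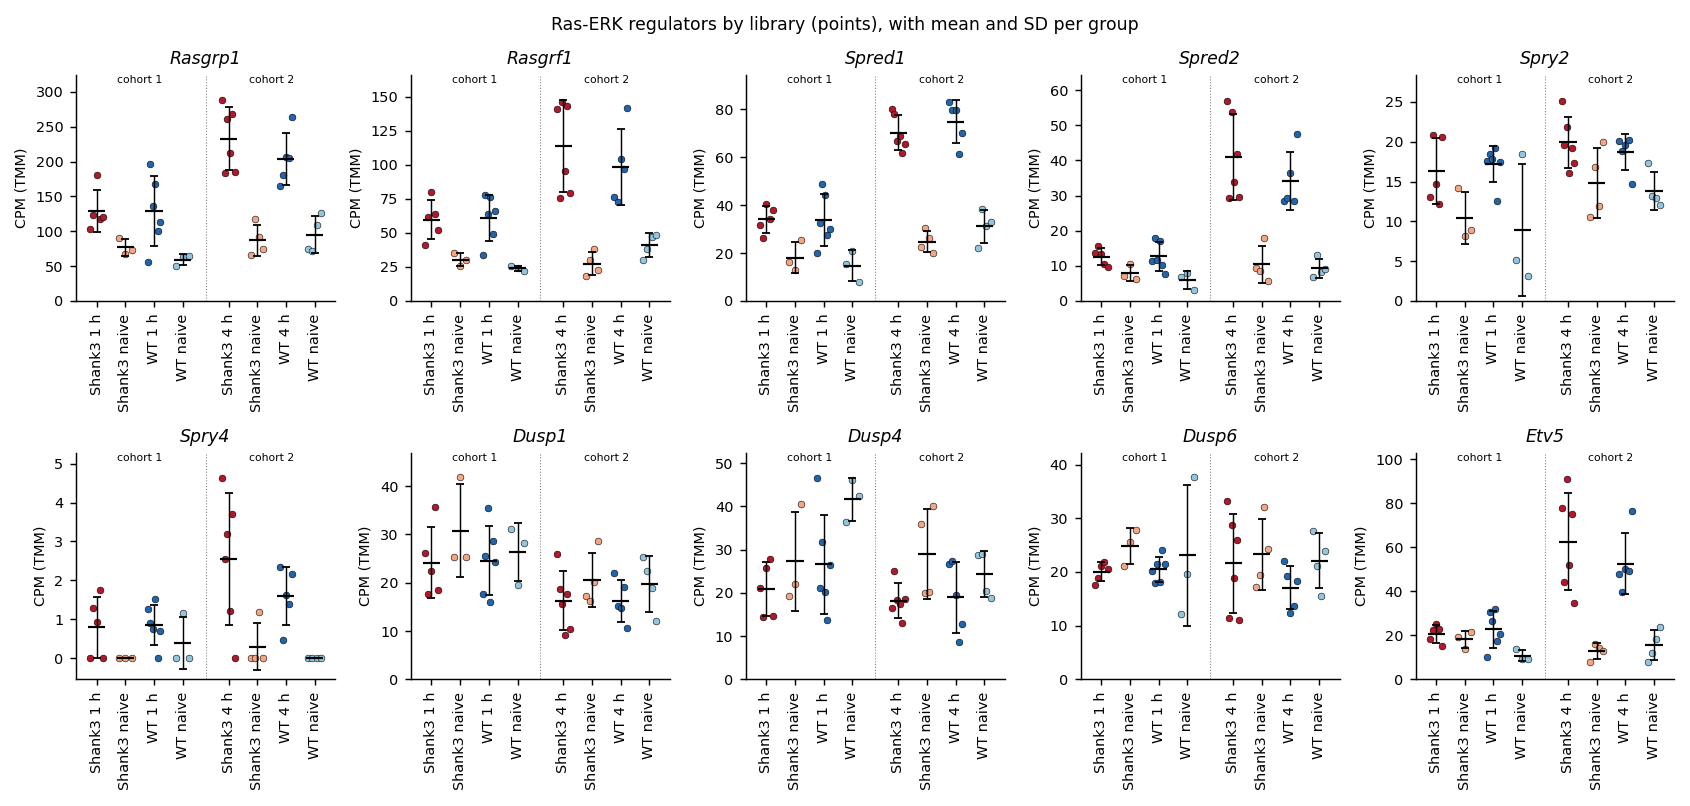
Level of each gene in CPM (counts scaled to the TMM library size; vertical axis) in every library, by genotype, time and cohort; points are libraries, horizontal lines are means and bars are SD. Rasgrf1 at 4 h sat between 75.8 and 146 CPM in Shank3, above all naive Shank3 libraries of cohort 2, while Dusp1, Dusp4 and Dusp6 overlapped their naive groups.

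Both exchange factors rose after swim. Rasgrf1, a calcium-activated exchange factor for Ras that is concentrated in neurons, rose in all 4 swim responses. At 1 h it had 41.1, 62.0, 79.9, 63.6 and 52.5 CPM in Shank3 swim libraries, against 35.4, 25.6 and 30.4 CPM in naive Shank3. In WT at 1 h it ran from 34.0 to 77.6 CPM with a median of 64.8 CPM, against 25.9, 24.2 and 22 CPM in naive WT. Every swim library at 1 h lay above every naive library of its genotype and cohort. At 4 h it ran from 75.8 to 146 CPM with a median of 118 CPM in Shank3 (n = 6), against 18.5, 30.3, 38.0 and 22.9 CPM in naive Shank3. In WT at 4 h it had 76.7, 72.4, 104, 97.2 and 142 CPM, against 30.0, 38.2, 46.9 and 48.8 CPM in naive WT. Again no swim and naive library overlapped in either genotype. The share of all genes without such overlap was not counted. Lack of overlap, here and for the genes below, is therefore only a description of these libraries. The log2 fold changes of Rasgrf1 were 0.97 ± 0.294 (SE; edgeR adjusted p = 0.0319) in Shank3 and 1.37 ± 0.311 (0.00218) in WT at 1 h, and 2.03 ± 0.259 (6.88e-07) in Shank3 and 1.26 ± 0.25 (9.77e-05) in WT at 4 h. The call in Shank3 at 1 h was lost, with adjusted p up to 0.179, without any 1 of naive Shank3 replicates 2 and 3 and Shank3 1 h replicates 3 and 4.

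Rasgrp1, an exchange factor activated by diacylglycerol and calcium, was the most abundant of the 10 genes and by edgeR rose in 3 of the 4 responses. It had 104, 124, 181, 117 and 121 CPM in Shank3 at 1 h, against 91.0, 67.4 and 73.4 CPM in naive Shank3. In WT at 1 h it ran from 56.6 to 197 CPM with a median of 125 CPM, against 50.1, 63.3 and 64.3 CPM in naive WT. The Shank3 groups did not overlap, and in WT 1 swim library, replicate 1, lay within the naive range. That library had a pair share of 11.45%, the lowest of the 1 h libraries. Rasgrp1 ran from 183 to 289 CPM with a median of 237 CPM in Shank3 at 4 h, against 66.2, 117, 91.4 and 74.4 CPM in naive Shank3. It had 165, 181, 206, 205 and 264 CPM in WT at 4 h, against 75.0, 71.1, 109 and 126 CPM in naive WT. At 4 h the groups of either genotype were apart. The log2 fold change was 0.74 ± 0.278 in Shank3 at 1 h, which missed the threshold (edgeR adjusted p = 0.0663) but passed by DESeq2 (adjusted p = 0.0474) and in edgeR without the low-count filter (0.0367), and 1.13 ± 0.286 (0.00405) in WT at 1 h. At 4 h it was 1.4 ± 0.245 (edgeR adjusted p = 1.23e-05) in Shank3 and 1.09 ± 0.248 (0.000401) in WT.

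Spred1 and Spred2 encode membrane-associated proteins that restrain Ras; Spred1 binds neurofibromin, a GTPase-activating protein that switches Ras off. Spred1 rose in all 4 responses. It had 31.8, 26.1, 40.4, 34.0 and 37.9 CPM in Shank3 at 1 h, against 16.2, 12.8 and 25.3 CPM in naive Shank3. WT at 1 h ran from 20.1 to 48.9 CPM with a median of 31.3 CPM, against 15.6, 20.7 and 7.85 CPM in naive WT. The Shank3 groups stood apart by less than 1 CPM, and WT 1 h replicate 1 lay below the highest naive WT library. At 4 h Spred1 ran from 61.9 to 80.1 CPM with a median of 67.8 CPM in Shank3, against 22.5, 30.3, 26.1 and 20.0 CPM in naive Shank3. WT at 4 h had 83.2, 79.5, 79.5, 61.3 and 69.9 CPM, against 21.9, 38.2, 31.3 and 32.9 CPM in naive WT. All 11 libraries at 4 h lay above all 8 naive libraries of cohort 2. The log2 fold changes of Spred1 were 0.93 ± 0.271 (edgeR adjusted p = 0.0276) in Shank3 and 1.19 ± 0.288 (0.00311) in WT at 1 h, and 1.47 ± 0.216 (2.26e-06) in Shank3 and 1.26 ± 0.215 (1.62e-05) in WT at 4 h. In Shank3 at 1 h the call was lost without naive Shank3 replicate 1 or 2 or Shank3 1 h replicate 3, with adjusted p up to 0.189.

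Spred2 stood at a lower level and rose in WT at 1 h and in both genotypes at 4 h. In Shank3 at 1 h it had 13.7, 15.7, 13.3, 10.5 and 9.75 CPM, against 7.08, 10.5 and 6.33 CPM in naive Shank3. In WT at 1 h it ran from 7.64 to 17.9 CPM with a median of 11.6 CPM, against 6.92, 8.05 and 3.14 CPM in naive WT. Both pairs of groups overlapped at 1 h. At 4 h Spred2 ran from 29.4 to 57.0 CPM with a median of 37.8 CPM in Shank3, against 9.27, 8.65, 17.8 and 5.73 CPM in naive Shank3. It had 28.5, 29.2, 36.5, 28.6 and 47.6 CPM in WT at 4 h, against 6.92, 13.2, 8.16 and 8.97 CPM in naive WT. Every swim library at 4 h lay above every naive library of its genotype. The log2 fold change was 0.66 ± 0.381 in Shank3 at 1 h (edgeR adjusted p = 0.229), 1.08 ± 0.423 in WT at 1 h (0.044), 2.0 ± 0.285 in Shank3 at 4 h (1.66e-06) and 1.91 ± 0.295 in WT at 4 h (6.58e-06). The WT call at 1 h rested on few counts, 119 in 6 swim libraries and 13 in 3 naive libraries. It was past the threshold in 25 of 36 fits that each left out 1 library, and was lost without any 1 of naive WT replicates 1, 2 and 3, WT 1 h replicates 2, 3 and 4, WT 4 h replicates 1, 3 and 4 and Shank3 4 h replicates 4 and 5, with adjusted p from 0.0513 to 0.215.

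The Sprouty genes encode inhibitors of receptor-driven Ras signalling. Spry2 passed the threshold in none of the 4 responses. At 1 h it had 13.1, 20.9, 14.7, 12.2 and 20.6 CPM in Shank3, against 14.2, 8.14 and 8.86 CPM in naive Shank3. In WT at 1 h it ran from 12.6 to 19.2 CPM with a median of 17.7 CPM, against 5.19, 18.4 and 3.14 CPM in naive WT. Naive WT replicate 2 lay as high as the swim libraries. The WT log2 fold change of Spry2 at 1 h was 0.83 ± 0.336 (edgeR adjusted p = 0.0512), and without that library it was 2.06 (0.00478). At 4 h the log2 fold changes were 0.42 ± 0.248 in Shank3 (edgeR adjusted p = 0.133) and 0.43 ± 0.258 in WT (0.149).

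Spry4 was at the edge of detection but was counted mostly after swim. At 4 h it had 57 counts in 5 of 6 Shank3 libraries, against 1 count in 1 of 4 naive Shank3 libraries, and 28 counts in 5 of 5 WT libraries, against 0 counts in 4 naive WT libraries. The ratio of counts per scaled library size in Shank3 was 12.7, with an exact 95% interval of 2.19 to 510. In WT it was at least 2.36-fold higher, set against a floor of 3 counts over the naive group. These bounds cover counting error only. Exact two-sided permutation tests of mean CPM gave p = 0.0476 in Shank3 (n = 6 and 4) and p = 0.0159 in WT (n = 5 and 4), or 0.0952 and 0.0636 after adjustment over 4 comparisons. At 1 h Spry4 had 6 counts in 5 Shank3 swim libraries, against 0 in 3 naive Shank3 libraries (exact permutation p = 0.357). It had 8 counts in 6 WT libraries, against 1 in 3 naive WT libraries (exact permutation p = 0.31), and the ratio of 1.92 had an interval of 0.258 to 85.3. In WT at 4 h no swim library overlapped a naive one, so 0.0159 was the lowest p that an exact permutation test of 5 against 4 libraries can give. Groups of this size leave such a test little room to pass after adjustment. Spry4 was not shown to differ after adjustment, and the low depth leaves wide bounds.

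The 3 phosphatases were not past the threshold in any swim response with TMM scaling over all genes. Dusp1, an immediate early gene whose nuclear product removes phosphate from ERK, p38 and JNK, had 26.2, 17.6, 22.5, 35.7 and 18.4 CPM in Shank3 at 1 h, against 25.3, 41.8 and 25.3 CPM in naive Shank3. In WT at 1 h it ran from 16.1 to 35.5 CPM with a median of 24.9 CPM, against 31.1, 19.6 and 28.2 CPM in naive WT. The groups overlapped in both genotypes. The log2 fold changes of Dusp1 were -0.37 ± 0.309 in Shank3 (edgeR adjusted p = 0.416) and -0.07 ± 0.325 in WT (0.877) at 1 h, and -0.26 ± 0.285 in Shank3 (0.426) and -0.28 ± 0.294 in WT (0.415) at 4 h. Dusp4, also a nuclear phosphatase of MAP kinases, had 16.6, 25.1, 18.4, 17.3, 13 and 18.5 CPM in the 6 Shank3 libraries at 4 h, against 35.8, 20.0, 20.2 and 40.1 CPM in naive Shank3. Of these swim libraries, 5 lay below every naive library. Its log2 fold changes were -0.38 ± 0.348 in Shank3 (edgeR adjusted p = 0.464) and -0.68 ± 0.327 in WT (0.0979) at 1 h, and -0.63 ± 0.297 in Shank3 (0.0612) and -0.36 ± 0.31 in WT (0.312) at 4 h. Without WT 1 h replicate 1, the 1 library of that group above naive WT, the WT value at 1 h was -0.87 (edgeR adjusted p = 0.0286). The Shank3 value at 4 h passed the threshold without naive Shank3 replicate 5 or 6, WT 1 h replicate 1, WT 4 h replicate 4 or Shank3 4 h replicate 2, at up to -0.81 (0.0317). Dusp6, a cytoplasmic phosphatase specific to ERK, averaged 20.0 ± 1.77 CPM in Shank3 (SD, n = 5) and 24.9 ± 3.35 CPM in naive Shank3 (n = 3) at 1 h, and 21.6 ± 9.23 CPM in Shank3 (n = 6) and 23.3 ± 6.57 CPM in naive Shank3 (n = 4) at 4 h. Its log2 fold changes lay between -0.35 and -0.05, with edgeR adjusted p of 0.274 or more.

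Etv5, an ETS factor whose transcription ERK signalling is known to induce, had the highest log2 fold change of the 9 genes in Shank3 at 4 h. At 1 h it had 18.1, 22.2, 25.3, 22.7 and 15.2 CPM in Shank3, against 19.2, 13.9 and 21.5 CPM in naive Shank3. In WT at 1 h it ran from 10.1 to 31.8 CPM with a median of 23.7 CPM, against 13.8, 9.2 and 9.42 CPM in naive WT. The Shank3 groups overlapped, and in WT 5 of 6 swim libraries lay above all naive ones. At 4 h Etv5 ran from 34.6 to 91.1 CPM with a median of 63.6 CPM in Shank3, against 7.95, 16.2, 14.2 and 12.9 CPM in naive Shank3. WT at 4 h had 47.7, 39.5, 50.2, 49.1 and 76.3 CPM, against 8.08, 11.8, 18.4 and 23.9 CPM in naive WT. The groups at 4 h did not overlap. The log2 fold change was 0.18 ± 0.35 in Shank3 at 1 h (edgeR adjusted p = 0.749), 1.16 ± 0.401 in WT at 1 h (0.0241), 2.24 ± 0.302 in Shank3 at 4 h (1.12e-06) and 1.72 ± 0.297 in WT at 4 h (1.9e-05). The WT call at 1 h was lost without naive WT replicate 2 or 3 or WT 1 h replicate 2 or 4, with adjusted p up to 0.107.

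In counts, 2 of the 9 genes tested rose in Shank3 at 1 h, where 4.99% of all 11341 genes rose, and 5 of 9 rose in WT at 1 h, where 16.9% did. At 4 h 5 of 9 rose in Shank3, against 32.7% of all genes, and 5 of 9 rose in WT, against 29.0%. None of the 9 fell in any response, where 7.25% and 17.3% of all genes fell in Shank3 and WT at 1 h, and 29.4% and 26.9% fell at 4 h. The median log2 fold change of the 9 was 0.64 in Shank3 and 1.08 in WT at 1 h, and 1.4 in Shank3 and 1.09 in WT at 4 h, beside 0.09, 0.24, 0.22 and 0.23 over all genes tested. Over the genes tested that have no gene opposite, the medians were higher, at 0.3, 0.57, 0.62 and 0.58 in the same order. Genes with no gene opposite, to which 8 of the 10 belong, rose more often as a class: 44.8% of 4822 such genes rose in Shank3 at 4 h and 38.4% in WT. Summed pyramidal markers were also higher at 4 h, at 2170 to 3660 CPM in Shank3 against 1510 to 1870 CPM in naive Shank3, and at 2240 to 3840 CPM in WT against 1340 to 2000 CPM in naive WT. Oligodendrocyte markers, 4 of 7 past the filter, summed to 123 to 325 CPM in Shank3 at 4 h against 71.6 to 123 CPM in naive Shank3, and to 116 to 269 CPM in WT against 84.2 to 90.7 CPM in naive WT. Astrocyte markers, 3 of 7 past the filter, summed to 29.4 to 52.0 CPM in Shank3 at 4 h against 22.5 to 31.5 CPM in naive Shank3, and to 29.5 to 57.2 CPM in WT against 16.2 to 45.8 CPM in naive WT. The microglia list was lower at both times, as given above. Their part in the results was not tested. In such pooled tissue, more cells of a type and more RNA per cell cannot be told apart.

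**Figure D2:**
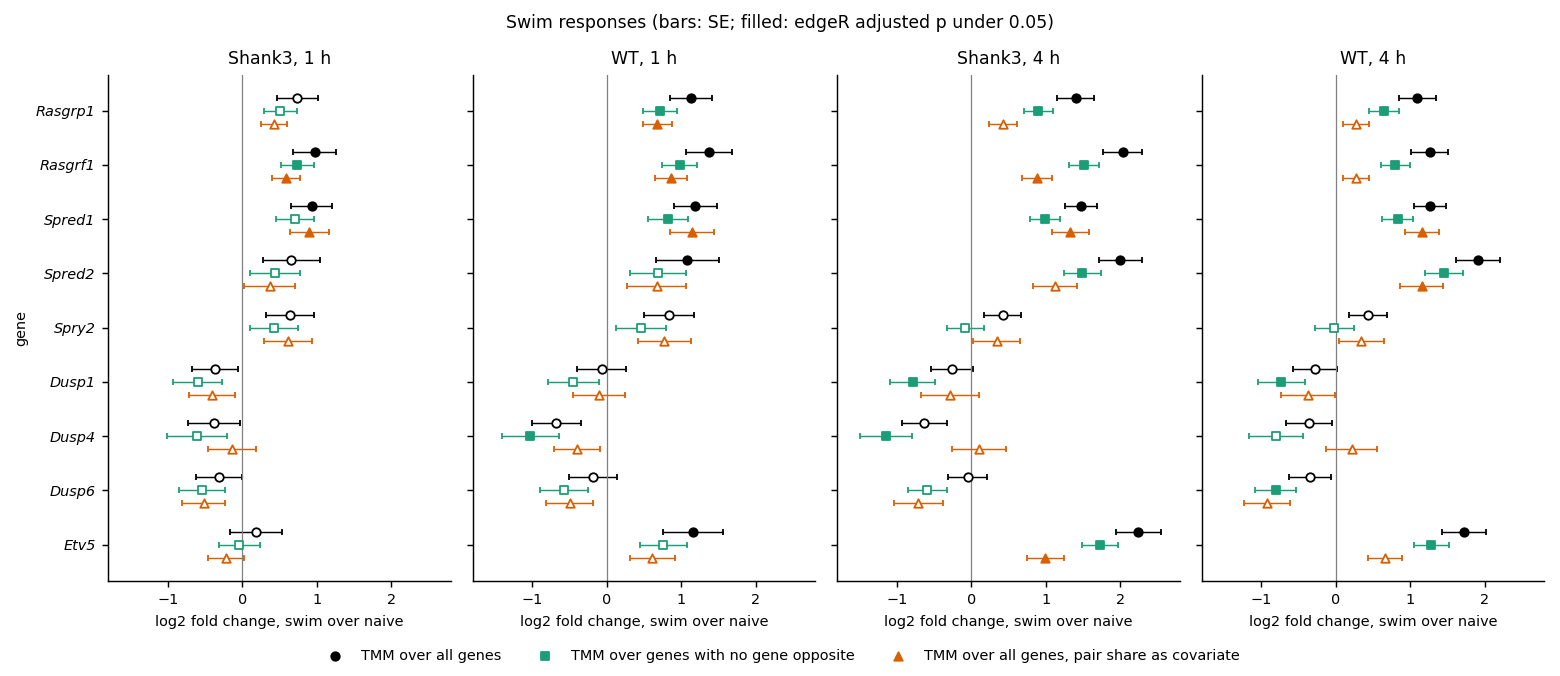
Log2 fold change of swim over naive (horizontal axis) for the 9 genes tested in each genotype and time, under TMM scaling over all genes, TMM scaling over genes with no gene opposite, and TMM over all genes with the pair share as a covariate; bars are SE and filled symbols have an edgeR adjusted p under 0.05. Spred1 had a log2 fold change of 0.71 or more under all 3, the lowest being Shank3 at 1 h with scaling on genes with no gene opposite, where it did not pass, while Dusp4 at 4 h lay on either side of 0.

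The scaling set where the phosphatases stood. Scaling on genes with no gene opposite, an alternative chosen after the data were seen, moved the median of all genes to -0.13 in Shank3 and -0.14 in WT at 1 h, and to -0.27 in Shank3 and -0.23 in WT at 4 h. With it 7 genes passed the threshold in each 4 h response. Rasgrp1, Rasgrf1, Spred1, Spred2 and Etv5 rose in both genotypes, with log2 fold changes from 0.9 (Rasgrp1) to 1.73 (Etv5) in Shank3 and from 0.65 (Rasgrp1) to 1.45 (Spred2) in WT. Dusp1 fell, by 0.79 in Shank3 (edgeR adjusted p = 0.0271) and by 0.73 in WT (0.0498) on the log2 scale. Dusp4 fell by 1.15 in Shank3 (edgeR adjusted p = 0.00577), and Dusp6 fell by 0.81 in WT (0.0152). The Dusp4 value in WT was -0.8 (0.0656) and the Dusp6 value in Shank3 was -0.59 (0.0577). Under this scaling 39.8% of all genes fell in Shank3 and 36.2% fell in WT at 4 h, and 15.6% rose in Shank3 and 13.1% in WT. At 1 h 4.68% fell in Shank3 and 23.2% in WT, and 1.91% rose in Shank3 and 6.99% in WT. At 1 h Rasgrf1 rose in both genotypes, by 0.74 in Shank3 (edgeR adjusted p = 0.044) and 0.98 in WT (0.00446), while Rasgrp1 (0.72) and Spred1 (0.82) rose in WT and Dusp4 fell by 1.03 in WT (0.0391). The calls of Spred1 in Shank3 (0.71, edgeR adjusted p = 0.0654), Spred2 in WT (0.69, 0.159) and Etv5 in WT (0.76, 0.0639) at 1 h were lost under this scaling. Spry2 changed sign at 4 h, to -0.08 in Shank3 and -0.02 in WT, and Etv5 in Shank3 at 1 h was at -0.04.

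The rising genes were also set against the pair share itself. In the fit with the pair share as a covariate, the slope of Spred1 was 0.13 ± 0.171 on the log2 scale per doubling of the pair share (edgeR adjusted p = 0.516), which did not pass. The slopes of Etv5 (1.31 ± 0.159), Rasgrf1 (1.22 ± 0.136), Rasgrp1 (1.04 ± 0.145) and Spred2 (0.95 ± 0.184) all passed the threshold, as did those of Dusp6 (0.71 ± 0.233) and, in the other direction, Dusp4 (-0.75 ± 0.265). The slope passed for 62.8% of all genes tested, and the differences between members' slopes were not tested. With this covariate the log2 fold changes of Spred1 were 0.9 ± 0.262 in Shank3 (edgeR adjusted p = 0.0157) and 1.14 ± 0.293 in WT (0.00362) at 1 h, and 1.33 ± 0.243 in Shank3 (0.0019) and 1.16 ± 0.227 in WT (0.000999) at 4 h. In that fit 5.41% of all genes rose in Shank3 and 12.5% in WT at 1 h, and 0.362% rose in Shank3 and 4.09% in WT at 4 h. Rasgrf1 was at 0.59 in Shank3 (edgeR adjusted p = 0.0261) and 0.86 in WT (0.00227) at 1 h, and at 0.88 in Shank3 (0.0206) and 0.27 in WT (0.385) at 4 h. Etv5 passed in Shank3 at 4 h (0.99, edgeR adjusted p = 0.0405) and not in WT (0.66, 0.0632), and Spred2 passed in WT at 4 h (1.15, 0.00813) and not in Shank3 (1.12, 0.0563). Rasgrp1 was at 0.68 in WT at 1 h (edgeR adjusted p = 0.00789) and did not pass in the other responses. The WT calls at 1 h of Spred2 (0.67, edgeR adjusted p = 0.228) and Etv5 (0.61, 0.14) were lost in this fit too. Dusp4 changed sign at 4 h, to 0.1 in Shank3 and 0.21 in WT. The covariate and the swim groups overlap, so this fit also takes out any part of a swim effect that runs along with the pair share.

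**Figure D3:**
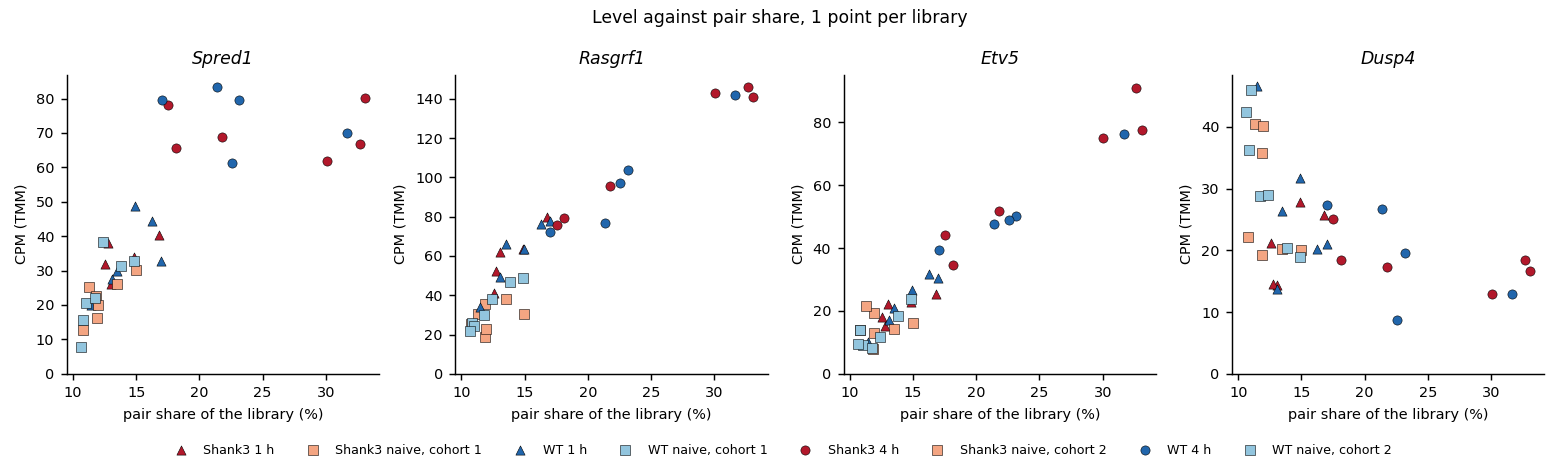
Level in CPM (TMM-scaled; vertical axis) against the pair share of the library in percent (horizontal axis) for Spred1, Rasgrf1, Etv5 and Dusp4, 1 point per library, coloured by genotype and treatment and shaped by time. Rasgrf1 and Etv5 climbed along the pair share across all groups, whereas Spred1 was at 78.0 and 65.5 CPM in Shank3 4 h libraries with pair shares of 17.53% and 18.15%.

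Single libraries of nearly the same pair share are given as a description across cohorts. Levels also differed between cohorts without swim: Spred1 averaged 14.7 CPM in naive WT of cohort 1 and 31.1 CPM in naive WT of cohort 2. Shank3 4 h replicate 2, WT 4 h replicate 2 and WT 1 h replicate 2 had pair shares of 17.53%, 17.04% and 16.99%. Spred1 stood at 78.0 CPM in the Shank3 4 h library and 79.5 CPM in the WT 4 h library, against 32.7 CPM in the WT 1 h library. Rasgrf1 stood at 75.8, 72.4 and 77.6 CPM in the same 3 libraries, and Etv5 at 44.3, 39.5 and 30.5 CPM. The Spred1 gap was narrower in others of like pair share. Shank3 4 h replicate 6 (18.15%) had 65.5 CPM of Spred1, 79.1 of Rasgrf1 and 34.6 of Etv5. Shank3 1 h replicate 3 (16.79%) had 40.4, 79.9 and 25.3 CPM, and WT 1 h replicate 4 (16.26%) had 44.4, 76.2 and 31.8 CPM.

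The later time was set against the earlier one as the difference of the 2 swim responses, each over the naive mice of its own cohort and averaged over genotypes. Each time lies in 1 cohort, so a difference between cohorts in swim response cannot be told apart from time. Of the 9 genes, 2 had a larger response at 4 h than at 1 h, where 3.74% of all genes did. Etv5 had a difference of 1.31 ± 0.352 on the log2 scale (edgeR adjusted p = 0.0129), which held without any 1 library. Spred2 had a difference of 1.09 ± 0.373 (edgeR adjusted p = 0.0483), which was past the threshold in 13 of 36 fits that left out 1 library, with adjusted p up to 0.176 in the others. The 13 were those without naive WT replicate 3 or 5, naive Shank3 replicate 6, WT 1 h replicate 2 or 4, Shank3 1 h replicate 2 or 3, WT 4 h replicate 1, 2 or 4, or Shank3 4 h replicate 2, 4 or 6. Its value ranged from 0.92 without naive WT replicate 2 of cohort 1 to 1.26 without naive Shank3 replicate 6. With the pair share as a covariate the differences were 0.63 (0.125) for Etv5 and 0.62 (0.3) for Spred2. Rasgrf1 (0.47 ± 0.278), Rasgrp1 (0.31 ± 0.258) and Spred1 (0.31 ± 0.253) did not pass, with edgeR adjusted p of 0.253, 0.434 and 0.436. Spry2 was at -0.31 ± 0.295 (0.511), and the phosphatases lay between -0.05 and 0.05.

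Genotype made no difference past the threshold in any of the 9 genes. Naive Shank3 over naive WT, averaged over the cohorts, gave log2 differences from -0.2 ± 0.26 (Dusp4) to 0.27 ± 0.323 (Spred2), where 0.00882% of all genes, 1 gene, passed. The naive means differed in direction between cohorts for Rasgrf1, Etv5, Dusp4, Rasgrp1 and Spred1, and not for the other genes tested. Rasgrf1 averaged 30.4 CPM in Shank3 and 24.0 CPM in WT in cohort 1, but 27.4 and 41.0 CPM in cohort 2. Etv5 averaged 18.2 and 10.8 CPM in cohort 1, but 12.8 and 15.6 CPM in cohort 2. At 1 h Shank3 over WT ran from -0.33 ± 0.276 (Dusp4) to -0.01 ± 0.217 (Rasgrp1), and no gene of all those tested passed, with 205 at an unadjusted p under 0.05 by edgeR and 0 called by DESeq2. At 4 h it ran from -0.09 ± 0.171 (Spred1) to 0.39 ± 0.224 (Dusp6), where 1 gene, again 0.00882%, passed. Every edgeR adjusted p of the 9 genes was 1 in these comparisons. The SEs, up to 0.323, set how small a difference could be seen, and a p that misses the threshold does not show that the genotypes were alike. The difference of the genotypes' swim responses was tested directly. It passed for none of the 9 genes and, by edgeR, for 0.0% of all genes, with 468 genes at an unadjusted p under 0.05 at 1 h and 302 at 4 h. DESeq2 called 0 genes at 1 h and 1 gene at 4 h. The widest values were those of Etv5 at 1 h, at -0.98 ± 0.538 (Shank3 response minus WT response), and of Rasgrf1 at 4 h, at 0.77 ± 0.353. Naive gaps between genotypes enter both values: Etv5 was higher in naive Shank3 of cohort 1, and Rasgrf1 was lower in naive Shank3 of cohort 2. Rasgrf1 at 4 h was the 1 member of the 9 with an unadjusted p under 0.05, and its value ran from 0.64 to 0.95 as single libraries were left out. Etv5 passed at 1 h in WT and not in Shank3, and that was not shown to be a difference between genotypes.

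**Figure D4:**
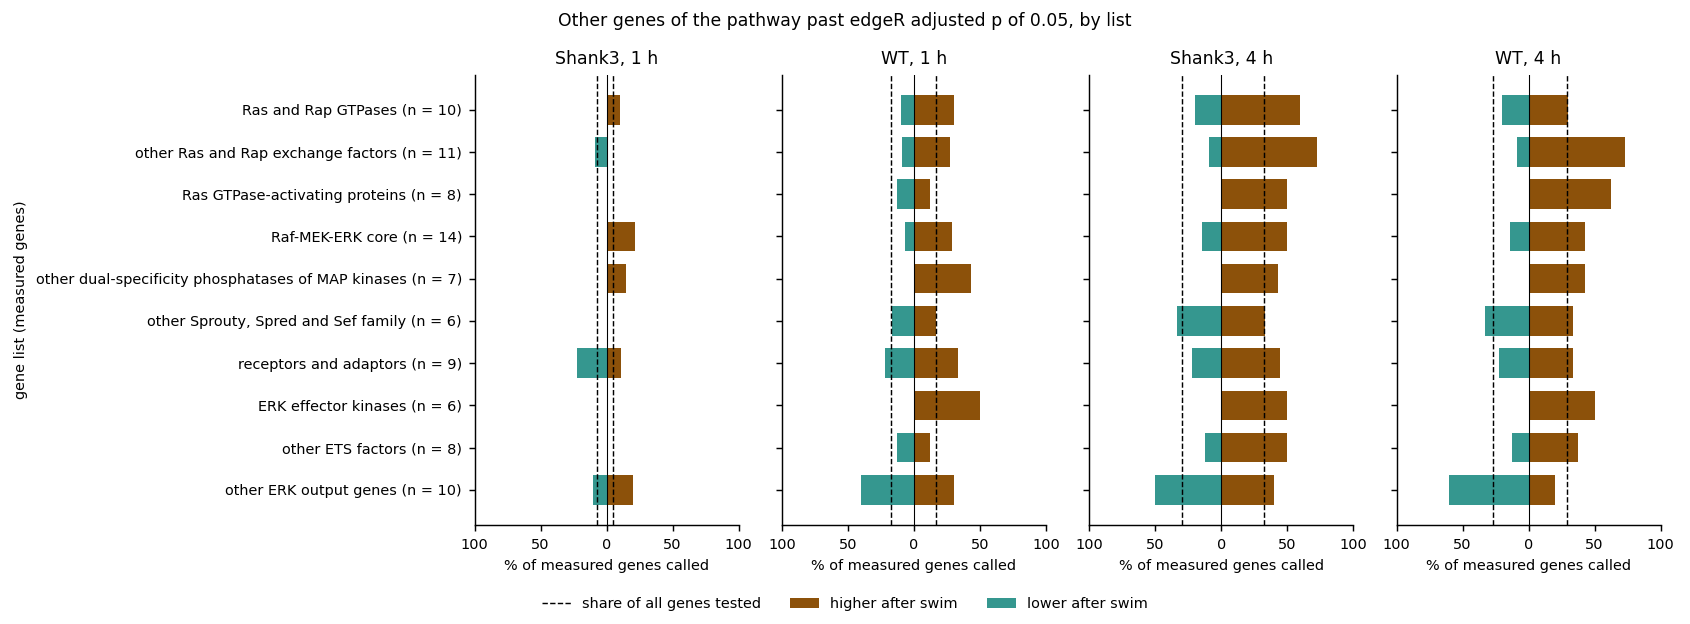
Percent of the measured genes in each list that rose (right of 0) or fell (left of 0) after swim at an edgeR adjusted p under 0.05, in each genotype and time; dashed lines give the same shares over all genes tested. The other exchange factors reached 8 of 11 in both genotypes at 4 h, and the other ERK output genes held 5 that fell in Shank3 and 6 that fell in WT.

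The rest of the pathway was read from 10 lists with 114 genes, of which 89 were measured. In Shank3 at 1 h 8 of the 89 rose (8.99%, beside 4.99% of all genes) and 4 fell (4.49%, beside 7.25%). In WT at 1 h 25 rose (28.1%, beside 16.9%) and 12 fell (13.5%, beside 17.3%). At 4 h 45 rose and 15 fell in Shank3, and 38 rose and 16 fell in WT. The percent that rose was 50.6% in Shank3 at 4 h, beside 32.7% of all genes, and 42.7% in WT, beside 29.0%. The percent that fell was 16.9% in Shank3, beside 29.4%, and 18.0% in WT, beside 26.9%. With scaling on genes with no gene opposite, 23 rose and 24 fell in Shank3 at 4 h and 19 rose and 25 fell in WT. These were 25.8% and 27.0% in Shank3, beside 15.6% and 39.8% of all genes. In WT they were 21.3% and 28.1%, beside 13.1% and 36.2%. With the pair share as a covariate, 1 rose and 0 fell in Shank3 at 4 h and 1 rose and 3 fell in WT, against 18 and 8 in WT at 1 h. Rises were 1.12% in Shank3 and 1.12% in WT at 4 h, beside 0.362% and 4.09% of all genes. In WT at 1 h they were 20.2%, beside 12.5%. No list gene passed in a genotype or response difference.

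Among the GTPases, Rap1b, a Ras relative that can also feed Raf, rose in all 4 responses, by 1.41 in Shank3 and 1.83 in WT at 1 h and by 1.15 in Shank3 and 1.5 in WT at 4 h on the log2 scale. Mras rose at 4 h, by 1.13 in Shank3 and 0.89 in WT, and Rasd1, which encodes a dexamethasone-induced Ras relative, fell at 4 h, by 1.41 in Shank3 and by 1.13 in WT, but was at 0.10 in Shank3 and 0.27 in WT with the pair share as a covariate. Of the 11 other exchange factors measured, 8 rose in each genotype at 4 h, where 32.7% of all genes rose in Shank3 and 29.0% in WT. Rasgrf2, the close relative of Rasgrf1, rose by 1.06 in WT at 1 h, and by 0.77 in Shank3 and 1.05 in WT at 4 h. Rasgrp4, whose row shares exon bases with a gene on the opposite strand, fell in all 4 responses, and without the strand of counting its reads cannot be told from that partner. Of 8 GTPase-activating proteins, 4 rose in Shank3 and 5 in WT at 4 h, beside the same 32.7% and 29.0% of all genes. Rasal1 was at 2.28 ± 0.365 (edgeR adjusted p = 4.57e-06) in Shank3 and 1.96 ± 0.372 (5.53e-05) in WT. Nf1, the neurofibromin gene, was at 2.15 in Shank3 and 1.83 in WT.

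In the kinase core, 7 of 14 genes rose and 2 fell in Shank3 at 4 h, where 32.7% of all genes and 44.8% of those with no gene opposite rose, and 6 rose and 2 fell in WT, where 29.0% and 38.4% rose. Araf, a Raf kinase whose row shares exon bases with another gene, rose at 1 h (1.23 in Shank3, 1.59 in WT) and fell at 4 h (by 1.15 in Shank3 and by 0.65 in WT). The other phosphatases of the Dusp family held 7 measured genes, of which Dusp3, Dusp8 and Dusp14 rose in WT at 1 h and in both genotypes at 4 h. Of all genes, 16.9% rose in WT at 1 h, and 32.7% in Shank3 and 29.0% in WT at 4 h. The rows of Dusp3 and Dusp8 share exon bases with a gene on the other strand. Dusp14 has no gene opposite and rose by 1.07 in Shank3 and 1.3 in WT at 4 h, and was at -0.07 in Shank3 and 0.30 in WT with the pair share as a covariate. In the Sprouty and Spred relatives, Spred3 rose by 1.24 in Shank3 and 0.94 in WT at 4 h, and Il17rd, which encodes the inhibitor Sef, fell by 1.48 in Shank3 and by 1.57 in WT at 4 h. The adaptor Grb2 rose in all 4 responses, by 0.91 to 0.97, and the adaptor Shc2 and the receptor Ntrk3 fell in all 4. The rows of Spred3 and Shc2 share exon bases with a gene on the other strand. Rps6ka2, a kinase that ERK activates, rose by 2.33 in WT at 1 h and by 2.11 in Shank3 and 1.59 in WT at 4 h. Of 8 other ETS factors, 4 rose and 1 fell in Shank3 and 3 rose and 1 fell in WT at 4 h. Of all genes, 32.7% rose and 29.4% fell in Shank3, and 29.0% rose and 26.9% fell in WT. Ets2 was at 0.77 in Shank3 and 0.66 in WT. With scaling on genes with no gene opposite, several calls among the genes named from the lists were lost. They were Grb2 in Shank3 (0.68) and WT (0.58) at 1 h and in Shank3 at 4 h (0.42), Dusp8 in Shank3 at 1 h (1.05) and in WT at 4 h (0.60), and Dusp14 in WT at 1 h (0.81). Ets2 at 4 h (0.28 in Shank3, 0.20 in WT), Spred3 in WT at 4 h (0.49), Rasgrf2 in Shank3 at 4 h (0.25), and Rap1b (1.18), Rasgrp4 (-1.10) and Egr1 (0.88) in Shank3 at 1 h were lost as well.

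The ERK output genes Fos and Egr1 are immediate early genes. Fos averaged 24.1 ± 3.16 CPM in Shank3 at 1 h (SD, n = 5) and 2.46 ± 2.53 CPM in naive Shank3 (n = 3), and 27.8 ± 10.1 CPM in WT at 1 h (n = 6) and 3.02 ± 1.91 CPM in naive WT (n = 3). Its log2 fold changes were 3.16 in Shank3 and 3.26 in WT at 1 h, against 1.63 in Shank3 and 2.02 in WT at 4 h, with edgeR adjusted p of 0.000812 or less. The difference between the times was -1.38 (edgeR adjusted p = 0.105). Egr1 rose by 1.1 in Shank3 and 1.71 in WT at 1 h and by 1.51 in Shank3 and 1.68 in WT at 4 h. Other output genes fell: Myc by 1.84 in Shank3 and by 1.17 in WT at 4 h, and Ccnd1 by 1.08 in Shank3 and 1.05 in WT at 4 h. The Ccnd1 row shares exon bases with a gene on the other strand. With the pair share as a covariate, Ccnd1 at 4 h was at -0.36 in Shank3 (edgeR adjusted p = 0.338) and -0.44 in WT (0.0882). No list gene, Myc included, fell in Shank3 at 4 h in that fit. Egr1 at 4 h was then at 0.64 in Shank3 (edgeR adjusted p = 0.321) and 0.99 in WT (0.0298).

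Across the 36 libraries, Pearson's r of log2 CPM was 0.951 between Rasgrp1 and Rasgrf1, 0.935 between Rasgrf1 and Etv5, and 0.873 between Spred1 and Spred2. Dusp4 ran the other way, at -0.679 with Rasgrp1, -0.656 with Rasgrf1 and -0.6 with Etv5. Dusp6 followed neither, with r between -0.319 and 0.34. The genes outside the list most like each member were Dclk1 for Rasgrp1 (r = 0.976), Nsf for Rasgrf1 (0.959), Eno1 for Etv5 (0.966), Homer1 for Spred2 (0.938), Add2 for Spred1 (0.932) and Rps16 for Spry2 (0.82). For the phosphatases they were Kcnk13 for Dusp4 (0.743), Trib1 for Dusp1 (0.725) and Ovol2 for Dusp6 (0.606). The libraries share group, depth and pair share, and r with the log2 pair share was itself 0.937 for Etv5, 0.921 for Rasgrp1, 0.911 for Rasgrf1, 0.907 for Spred2, 0.832 for Spred1, -0.595 for Dusp4, -0.47 for Dusp1 and -0.0488 for Dusp6.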

How the data were processed

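Ribosome-bound RNA was sequenced per library from a stranded TruSeq kit, per the labels' protocols. The authors deposited whole-number counts per gene, not normalized. Trimmomatic (0.39), FastQC, HISAT2 (2.2.0), StringTie (2.1.3), Salmon (1.4), DESeq2 and mm10 appear in the submitters' processing notes. Which tool counted, and whether by strand, is not given in the sources used here. Whether the counts of a row come from its own strand was not tested. Rows without a symbol held 0.041% of counts.

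The members and gene lists were chosen with earlier results of these data known. Genes named were the 10 members, Shank3, Fos, Egr1, up to 2 genes per list and comparison with the smallest p past the threshold, the 3 genes most like each member whose mean log2 CPM was at least 1, and rows opposite a member. One gene that this rule named is not reported here.

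All 36 libraries entered edgeR 4.0.16 in R 4.3.3 (robust quasi-likelihood test, TMM, filterByExpr, 11341 genes, 8 cells of genotype, treatment and cohort, 28 residual degrees of freedom). P-values were adjusted by Benjamini-Hochberg over all genes within each of 10 comparisons, and 0.05 was the threshold. SE is the size of the log2 fold change over the root of F, which can be too small at low counts. CPM are per TMM-scaled library size. No label ties a library to an animal, and p-values reflect variation among libraries, which may be technical. In 68 pairs of replicates, chi-square over degrees of freedom ran from 1.46 to 81.6, and all libraries were kept. The highest value was between replicates 5 and 7 of naive Shank3 in cohort 2. Replicate 7 held 38.69% ribosomal RNA and replicate 6 of the same group held 13.58%. Both belong to the naive reference of Shank3 at 4 h. The fits were run on simulated counts with known changes in the WT swim groups. At 1 h they recovered 3% of 1.5-fold, 31.3% of 2-fold and 57.6% of 3-fold changes, and at 4 h 4.5%, 32.8% and 84.8%. False calls numbered 3 at each time. In the simulation most changes of 2-fold or less missed the threshold. It changed 67 genes by 1.5-fold, 67 by 2-fold and 66 by 3-fold at each time. In the data 3879 genes were called in WT at 1 h and 6350 at 4 h. With so few changed genes the adjustment was stricter than in the data. The recovered shares therefore do not carry over to the fits above. Alternatives were no filter, RLE size factors, DESeq2 1.42.0, the replicate number as a block, the pair share as a covariate, each library left out in turn, libraries with over 10% ribosomal RNA left out and, added after the data were seen, TMM scaling on the 4822 genes with no gene opposite. No label pairs libraries by replicate number, and the main fit did not pair them. Correlations of deviations between libraries of the same number ran from -0.252 to 0.735. The highest, 0.691 and 0.735, were between Shank3 and WT at 4 h for replicates 2 and 5, which also had like pair shares. Exact tests used SciPy 1.17.1. Precision follows from total counts of 883870 to 3520018 per library.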

Additional observations from a re-analysis of the deposited data

Results flagged for a closer look

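In 4 cases a value stood apart from those of the other libraries of their group by Dixon's test of a single far value. In 59 groups of values tested, chance sets apart about 1 in 20. Spry2 was low in WT 1 h replicate 5, at 12.6 CPM against 17.4 to 19.2 CPM in the other 5, on 11 counts and in a library with 10.59% ribosomal RNA. Spry2 was also low in WT 4 h replicate 5, at 14.7 CPM against 18.8 to 20.2 CPM, in the deepest library of the study, with a pair share of 31.65%. Spry4 stood at 1.19 CPM in naive Shank3 replicate 6 of cohort 2, on 1 count against 0 in the other 3. Rasgrp1 was high in Shank3 1 h replicate 3, at 181 CPM against 104 to 124 CPM, and that library had the highest pair share of its group, 16.79%.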

How the results depend on the processing

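At 4 h the 5 rising genes passed in all 36 fits that left out 1 library, in both genotypes. Over those fits the members called ran from 0 to 3 in Shank3 and 3 to 6 in WT at 1 h, 5 to 6 in Shank3 and 5 in WT at 4 h, 1 to 2 for the time difference, and 0 for genotype and response differences. All genes called ran from 58 (without naive Shank3 replicate 2 of cohort 1) to 1704 (without WT 1 h replicate 1) and from 2325 to 4612 at 1 h, from 6098 to 7290 and from 5098 to 6701 at 4 h, from 953 to 2063 for time, from 0 to 6, 0 and 1 for genotype (naive, 1 h, 4 h), and from 0 to 2 and 0 to 1 for response differences at 1 h and 4 h. The replicate block left 493 genes and 0 members in Shank3 at 1 h and 354 genes and 0 members for time. Whether the numbers pair libraries is not given in the sources used here. Scaling on genes with no gene opposite gave 748 genes and 1 member in Shank3 at 1 h, 1 member for time and 1 gene for the response difference at 4 h. The pair share covariate gave 2461 genes and 3 members in WT at 1 h, 60 genes and 3 members in Shank3 and 873 genes and 2 members in WT at 4 h, 705 genes and 0 members for time, and 3 genes each for genotype in naive mice and at 4 h. Without the filter, 7, 1 and 5 genes were called for genotype (naive, 1 h, 4 h), 5 for the response difference at 4 h and 1 member for time. Each cohort alone gave 0 for genotype in naive mice, DESeq2 gave 1 for the response difference at 4 h, and leaving out libraries rich in ribosomal RNA gave 917 genes and 1 member for time. Signs turned for Spry2 at 4 h with the no-opposite scaling (-0.08 in Shank3, -0.02 in WT); Etv5 in Shank3 at 1 h with that scaling (-0.04) and the pair share (-0.22); Dusp4 at 4 h with the pair share (0.10 in Shank3, 0.21 in WT); Dusp1 in WT at 1 h without the filter (0.03) and with the block (0.07), and in Shank3 at 4 h without rRNA-rich libraries (0.01); Dusp6 in Shank3 at 4 h without the filter (0.06), with RLE (0.08), with DESeq2 (0.07) and without rRNA-rich libraries (0.27). Leaving out 1 library gave -0.26 to 0.07 for Dusp1 and -0.45 to 0.32 for Dusp6 in WT at 1 h, -0.58 to 0.01 for Dusp4 in Shank3 at 1 h and -0.23 to 0.14 for Dusp6 in Shank3 at 4 h. The cause was not tested. Depth limits Spry4 and, at 1 h, Spred2.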
